A study of Mus musculus with 9 samples.

Results

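The size-matched inputs of an iCLIP experiment in N2a cells, a mouse neuroblastoma line, form 3 of its 9 libraries. iCLIP crosslinks RNA to protein with ultraviolet light, recovers the protein with an antibody and sequences the RNA fragments that stayed attached. Genes were taken as members when they held 20 or more counts summed over the 3 inputs, and 4270 of the 22442 genes in the count tables did so. Of these, 4044 had a deposited length for both the coding sequence (CDS) and the 3' untranslated region (3' UTR), and 4027 of them had a count in at least 1 of these parts.

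The inputs were taken from N2a Flp-In rtTA lines. That of input 1 carries FLAG-tagged Chtop lacking exon 5, that of input 2 carries the form that includes it, and that of input 3 carries FLAG-GFP. Per the labels, isoform lines received doxycycline at 2 µg/mL for 24 hours to switch on the cDNA, and cells were irradiated with 0.15 J/cm2 at 254 nm. The protocol names the isoform lines for this treatment and not the GFP line. Each input was 2% of the lysate, kept back before the anti-FLAG step. The remaining 6 libraries are anti-FLAG immunoprecipitates, 3 of each Chtop isoform. Each line gave 1 input, so lines and replicates cannot be told apart, and the inputs are used here as 3 samples of 1 group. Chtop is a protein of mRNA export, and all 9 libraries come from N2a cells.

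A size-matched input is run on the same gel and cut at the same height as the immunoprecipitate, so it holds RNA crosslinked to any protein of that size range. The CDS is the part of an mRNA that ribosomes read, and elongating ribosomes occupy it. The 3' UTR lies downstream of the stop codon and carries most of the sites at which RNA-binding proteins and miRNAs act on stability, localisation and translation. Counts per base in the 2 parts of 1 gene share the abundance of that mRNA, so their ratio compares the parts within the gene, as far as both parts belong to the same transcripts.

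The inputs held 111982, 173342 and 75504 counts, against 624062 to 1844970 in the immunoprecipitates. A floor of 3 counts in a library equalled 26.8, 17.3 and 39.7 CPM in inputs 1, 2 and 3 (CPM is the count scaled to a common library total). Collapsing of reads to molecules is not described in the labels, and intervals and floors therefore cover counting error alone. Among the neuronal markers, 9 of the 10 with a symbol had an input count, with a summed level of 2116 to 2980 CPM. Of 3 endothelial and 4 epithelial markers listed, only Cdh5 and Krt18 had a symbol in the tables, and both were at 0 in every input. Col1a1 was the only fibroblast marker counted (10 counts in the GFP input). Of 5 immune and 8 glial markers listed, 2 and 4 had a symbol, and these reached at most 8.93 and 26.5 CPM summed. P-values below measure the spread between these libraries, which for single genes was estimated in part over all genes.

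A single gene led the inputs by counts. Lars2, which encodes the mitochondrial leucyl-tRNA synthetase (chromosome 9, 123366927 to 123462675 in GRCm38.p6), had 6686, 10735 and 3942 counts in inputs 1, 2 and 3. That was 57948 ± 5093 CPM (SD, n = 3), and it was above the 1239 to 1870 CPM of the 6 immunoprecipitates in every input. Of the Lars2 counts in the inputs, 21342 lay in the 3' UTR and 21 in the CDS. The level is thus almost wholly that of the 3' UTR, and the origin of these reads was not examined. D10Wsu102e, a gene known by its locus name, followed with 712, 1137 and 691 counts. Vgf, which encodes a secreted neuropeptide precursor, had 1148, 434 and 396 counts and was highest in input 1. Map1b, whose product binds microtubules in axons, had 407, 755 and 323 counts. Scd2, encoding a stearoyl-CoA desaturase of lipid synthesis, had 517, 536 and 230. These 5 genes were found in all 3 inputs at levels that differed by less than 5-fold.

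**Figure D1:**
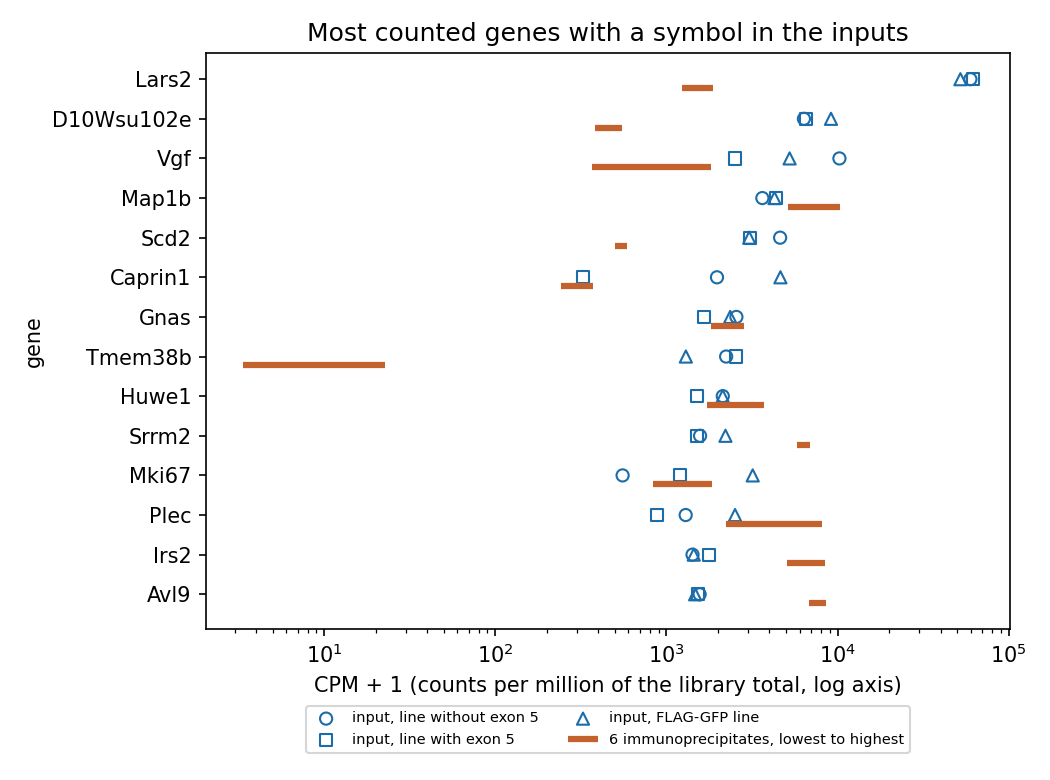
CPM + 1 on a log axis for the 14 genes with a symbol and the highest mean CPM over the inputs. Open symbols are the 3 inputs and bars run from the lowest to the highest of the 6 immunoprecipitates. Lars2 stands at 52209 to 61930 CPM in the inputs, while Caprin1 runs from 323 to 4636 CPM between inputs.

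Other well-counted genes varied between inputs to different degrees. Caprin1, encoding an RNA-binding protein of stress granules, had 221, 56 and 350 counts, so its CPM was lowest in input 2 and highest in input 3. Gnas, encoding the stimulatory G protein alpha subunit, had 287, 288 and 178 counts, or 2194 ± 472 CPM (SD, n = 3). Tmem38b, encoding an intracellular cation channel, had 250, 440 and 98 counts. Picalm, a clathrin assembly gene, had 427, 76 and 23 counts and was highest in input 1. Eif4g1, the scaffold of the cap-binding complex, had 313, 180 and 0 counts. The 12 genes with the highest mean CPM include 5 without a symbol in the deposited tables, and 4 of those 5 had no 3' UTR entry. These 4 were ENSMUSG00000064357.1, ENSMUSG00000064370.1, ENSMUSG00000064351.1 and ENSMUSG00000064345.1. Their mean CPM was 3489, 3183, 3142 and 2709 in the inputs, against 104, 111, 92.5 and 137 in the immunoprecipitates. The other, ENSMUSG00000029580.14, stood at 3422 against 192. Genes without a symbol held 18.5 to 19% of input counts, against 4.46 to 5.49% in the immunoprecipitates.

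Below these leaders the inputs were thin and uneven. The most counted gene held 5.92% of the summed input counts, the 10 most counted 9.53%, the 100 most counted 19.9% and the 500 most counted 39.0%. The median member had 45 counts over the 3 inputs. Only 1538 members (36.0%) were counted in all 3 inputs, 2046 in 2 and 686 in 1, and 1362 members (31.9%) had 80% or more of their counts in 1 input. Across the members, log2(CPM + 1) correlated between inputs with Pearson's r of 0.05, -0.04 and 0.02. For genes with 100 or more counts these were 0.20, -0.13 and 0.0041. The points share the count minimum that chose them and the depth of each library, and genes are not replicates.

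Several gene groups held a different share of the inputs than of the immunoprecipitates. Only listed genes with a symbol in the deposited tables entered these groups. Genes for cytosolic ribosomal proteins, the protein components of both ribosomal subunits, held 0.889, 0.541 and 0.412% of counts in inputs 1, 2 and 3, against 0.0515 to 0.0908% in the 6 immunoprecipitates. Heat shock proteins and chaperones held 0.665% ± 0.093 (SD, n = 3) against 0.110 to 0.267%. Genes of the secretory pathway and membrane glycoproteins held 1.35% ± 0.0623 against 0.400 to 0.560%, and neuroblastoma and neuron identity genes 1.21% ± 0.276 against 0.401 to 0.564%.

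Chromatin regulators held 0.974% ± 0.0743 in the inputs against 2.57 to 3.04%, and SR proteins with speckle scaffolds 0.743% ± 0.130 against 1.34 to 1.5%. Cytoskeletal genes with a symbol, 18 of the 28 listed, were also lower, at 0.949% ± 0.0717 against 1.22 to 1.66%. Listed cytoskeletal genes without a symbol were not counted here. The share of the full list was therefore not measured and could differ, also in direction. Translation factors were higher, at 0.969% ± 0.315 against 0.350 to 0.470%. In each of these groups the inputs did not overlap the immunoprecipitates. Glycolysis genes did, at 0.293% ± 0.0327 against 0.197 to 0.269% with input 2 inside that range, and so did hnRNPs, histones and immediate-early genes. No test was run on these shares. In bulk libraries, fewer cells with an RNA and less of it per cell cannot be told apart. Mitochondrially encoded genes had no symbol in the deposited tables, so their share was not measured. They may be among the counted genes without a symbol. Among the markers of other cell types that had a symbol, none was a member. Those without a symbol could not be looked up. Depth, the antibody step and later handling all differ between inputs and immunoprecipitates, and their parts in these values cannot be told apart.

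Input counts were split nearly evenly between the CDS and the 3' UTR. The 3' UTR held 48.9, 50.2 and 51.6% of counts in inputs 1, 2 and 3, with 95% Wilson intervals of 48.6 to 49.2, 50.0 to 50.5 and 51.2 to 51.9%. In the immunoprecipitates it held 27.5 to 30.9%. Every input was above every immunoprecipitate, by 21 percentage points on average (two-sided exact permutation test, p = 0.0238, adjusted p = 0.0357 over 3 parts). This unadjusted p is the smallest that the permutation test can give with 3 against 6 libraries. The CDS held 47.6, 46.9 and 45.4% in the inputs and 66.1 to 68.8% in the immunoprecipitates, a difference of -20.8 points (exact permutation test, adjusted p = 0.0357). The 5' UTR held 3.42, 2.89 and 3.02%, and its difference of -0.243 points did not pass (exact permutation test, adjusted p = 0.310). With any input left out, 2 against 6 libraries cannot pass 0.05, and the adjusted p was 0.107 for the CDS and the 3' UTR.

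Per base, the 3' UTR was denser than the CDS in the inputs, and the reverse held in the immunoprecipitates. Counts summed over the tested genes and divided by summed length gave 38.8 ± 2.13 CPM per kb in the CDS and 47.0 ± 2.61 in the 3' UTR (SD, n = 3). The ratio of CDS to 3' UTR was 0.896, 0.820 and 0.768 in inputs 1, 2 and 3, below 1 in each. The 6 immunoprecipitates had a ratio of 2.15 ± 0.133, from 2.02 to 2.35. Without the 10 most counted genes the inputs' ratios were 1.04, 0.968 and 0.866, so that the excess of the 3' UTR was no longer present in every input, while the immunoprecipitates stayed at 2.14 ± 0.132. The inputs lay below all immunoprecipitates in both calculations.

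**Figure D2:**
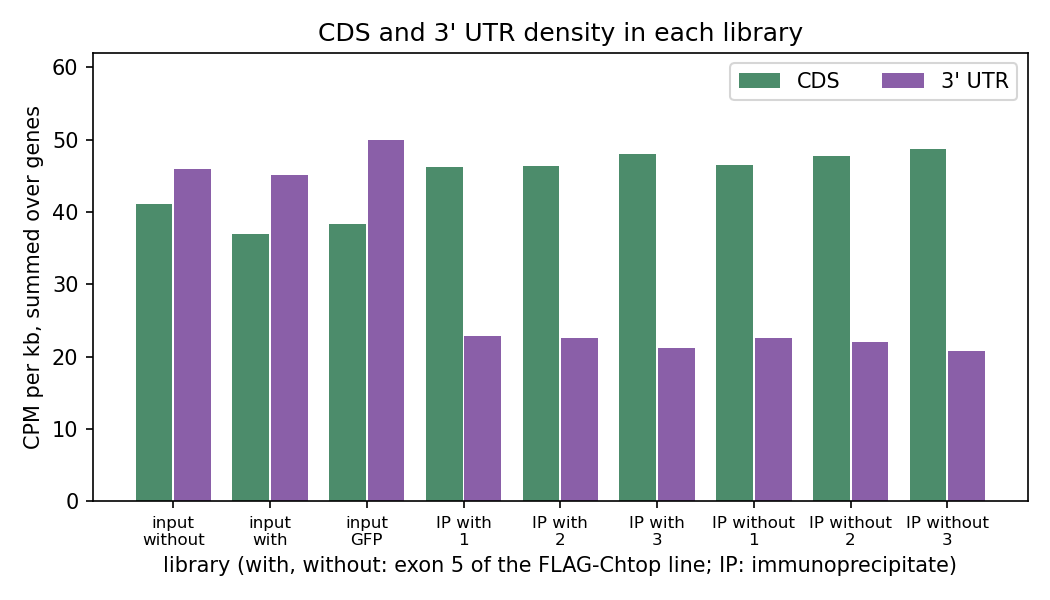
CPM per kb in the CDS (green) and the 3' UTR (purple) of each of the 9 libraries, with counts and lengths summed over the tested genes; each pair of bars is 1 library. The 3' UTR bars of the inputs lie between 45.1 and 50.0, and those of the immunoprecipitates between 20.7 and 22.9.

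Gene by gene, the inputs rarely settled which part was denser. The test fitted, in each gene, the CDS against the 3' UTR with length as an offset and the library as a block, over 6 columns of counts. With the edgeR quasi-likelihood test and Benjamini-Hochberg adjustment at 0.05, 0 genes were denser in the CDS and 4 of 4027 (0.0993%) were denser in the 3' UTR. At an unadjusted p under 0.05 there were 11 and 45 genes. DESeq2 called 0 and 6, and limma-voom 0 and 6. The fit's common dispersion was 3.1 with 2 residual degrees of freedom, against 0.734 and 0.454 when the 3 libraries of either isoform were fitted the same way. The median prior degrees of freedom within the inputs were infinite, so for many genes the test used a spread estimated over all genes. At this spread and depth, differences of most genes were not detectable, which does not show that their parts were equally dense.

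The 4 called genes had nearly all their input counts in the 3' UTR. Tmem38b (chromosome 4, 53825988 to 53862019) had 0 counts in the CDS of 916 bases and 250, 440 and 98 counts in the 3' UTR of 1922 bases. With the CDS set to 3 counts per library, its 3' UTR was at least 34.5-fold denser (edgeR adjusted p = 0.0063). The 6 immunoprecipitates together held 3 CDS and 97 3' UTR counts of this gene. D10Wsu102e (chromosome 10, 83360221 to 83368835) had 0 CDS counts and 712, 1137 and 691 3' UTR counts (edgeR adjusted p = 0.00826). Its deposited 3' UTR length of 122586 bases exceeds the 8615 bases that RefSeq gives the whole gene, and with that length the bound was at least 1.19-fold.

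The other two called genes have no symbol. One (ENSMUSG00000024134.11) had 0 CDS counts and 170, 125 and 283 3' UTR counts, at least 51.5-fold denser (edgeR adjusted p = 0.0063). The other (ENSMUSG00000072772.3) had 0, 5 and 0 CDS counts against 297, 338 and 123 (edgeR log2 ratio -8.05, SE 1.94, adjusted p = 0.0331). Lars2, with 0, 21 and 0 CDS counts against 6686, 10714 and 3942 in its 3' UTR of 989 bases, was not called (edgeR log2 ratio -13.77, SE 3.29, adjusted p = 1.00). Over 13 ways of fitting, Lars2 was called in 7, D10Wsu102e in 7 of the 12 that tested it, Tmem38b in 10 and the unnamed pair in 11 and 10. Without input 1, 1 gene was called, and without input 3, 6 were.

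**Figure D3:**
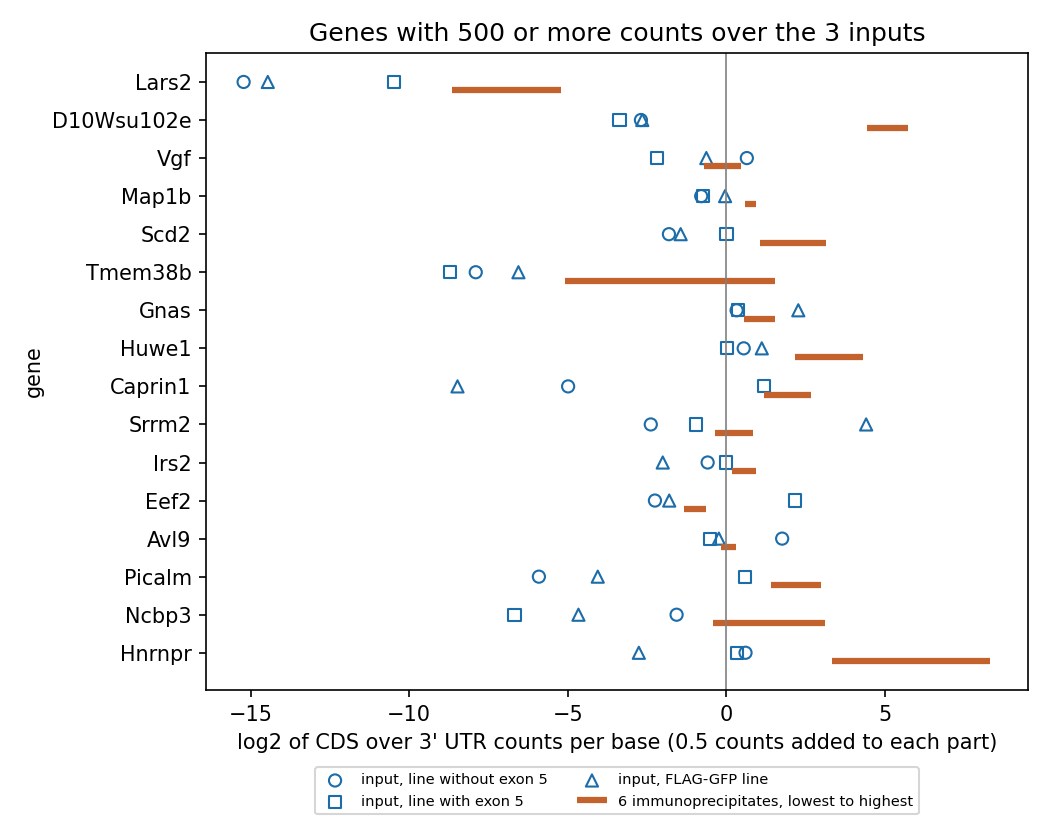
Log2 of CDS over 3' UTR counts per base, with 0.5 counts added to each part, for the 16 genes with a symbol and 500 or more input counts. Open symbols are the 3 inputs and bars run from the lowest to the highest of the 6 immunoprecipitates. Caprin1 spans -8.48 to 1.18 between inputs, and Map1b lies between -0.79 and -0.04.

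The best counted genes showed both how the parts differed and how far the inputs differed among themselves. Of the 21 genes with 500 or more input counts, 10 had the 3' UTR denser in all 3 inputs, 2 had the CDS denser in all 3 and 9 were mixed. Map1b had 201, 382 and 201 CDS counts over 7443 bases and 206, 373 and 122 3' UTR counts over 4416 bases. Its log2 ratio was -0.79, -0.72 and -0.04 in the inputs and 0.59 to 0.94 in the immunoprecipitates, without overlap. Of the 21 genes, 12 had all inputs below all immunoprecipitates, against 9.5% of all 4044 genes. The edgeR test of the difference between inputs and immunoprecipitates did not call Map1b (-1.29, SE 0.46, adjusted p = 0.129). Gnas had 181, 179 and 146 CDS counts and 83, 80 and 17 in the 3' UTR, so its CDS was denser in every input, by 0.33, 0.37 and 2.27 on the log2 scale. Huwe1, encoding a large ubiquitin ligase, was the other gene with the denser CDS in all 3 inputs, at 0.55, 0.02 and 1.12.

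Several of these genes changed side between inputs. Vgf had 798, 180 and 266 CDS counts against 141, 226 and 114 in the 3' UTR, with log2 ratios of 0.65, -2.17 and -0.63. Eef2, encoding the elongation factor that moves the ribosome along the mRNA, had 48, 344 and 64 CDS counts against 37, 12 and 36, and its ratio was above 0 in input 2 alone. Srrm2, encoding a scaffold of nuclear speckles, had 131, 232 and 167 CDS counts against 43, 28 and 0, and its ratio was above 0 in input 3 alone. Caprin1 had 3, 30 and 0 CDS counts against 218, 26 and 350, and was above 0 in input 2 alone. None of these 4 passed the edgeR test.

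Over all genes the same held. Of 4027 tested genes, 2642 had input counts in both parts, 677 in the CDS alone and 708 in the 3' UTR alone. Of the 1368 counted in all 3 inputs, 205 (15.0%) were denser in the CDS in every input. Another 315 (23.0%) were denser in the 3' UTR in every input and 848 changed side. For this, 1 count in either part of each input was enough, and 0.5 counts were added to each part. A side can therefore rest on 1 count and on the part lengths. The median SD of a gene's log2 ratio over the 3 inputs was 2.55. Of the fitted log2 ratios, 52.5% were below 0. The median fitted log2 ratio was -0.19, with quartiles of -3.04 and 2.59, and with genes seen in 1 part alone set to their bound it was 0.00. It was -0.54 for the 668 genes with 100 or more counts and -1.83 for the 21 with 500 or more. Genes with 20 to 24 counts had a median of 0.08 (559 genes) and those just outside, with 15 to 19, a median of -0.13 (708 genes).

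Per library, over genes with 10 or more counts in it, the median log2 ratio was -0.22, -0.07 and -0.68 in inputs 1, 2 and 3. Its mean was -0.32 ± 0.32 (SD, n = 3), and the 6 immunoprecipitates ranged from 0.51 to 0.86. Across genes, the ratios of 2 inputs correlated with Pearson's r of 0.21, 0.22 and 0.24 (855 to 1683 genes), and the inputs' summed ratio correlated with that of the immunoprecipitates at 0.26 (557 genes with 100 or more counts). These points share the part lengths of each gene.

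The ratio of summed counts per base differed between classes of 3' UTR length. In the quartile with the shortest 3' UTRs, up to 901 bases, the 3' UTR held 106 CPM per kb and the CDS 52.0. In the quartile with the longest, from 3333 bases, they held 27.6 and 28.3. Without the 10 most counted genes, the log2 ratio of summed counts per base was -0.96, -0.94 and -1.20 in the first quartile. It was -0.64, -0.62 and -1.24 in the second, -0.16, -0.22 and -0.16 in the third and 0.22, 0.04 and -0.06 in the fourth.

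Every input was thus lower in the first quartile than in the fourth. The immunoprecipitates ran in the same direction at a higher level, from 0.24 ± 0.14 to 1.54 ± 0.10 (SD, n = 6). The median over single genes went the other way, from 2.15 in the first quartile to -1.44 in the fourth. In the first, 421 of 1007 genes had no 3' UTR count, and in the fourth 268 of 1007 had no CDS count. A median of genes at 0 in 1 part depends on what stands for that 0, and with bounds in its place the medians were 0.00 and -0.12.

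**Figure D4:**
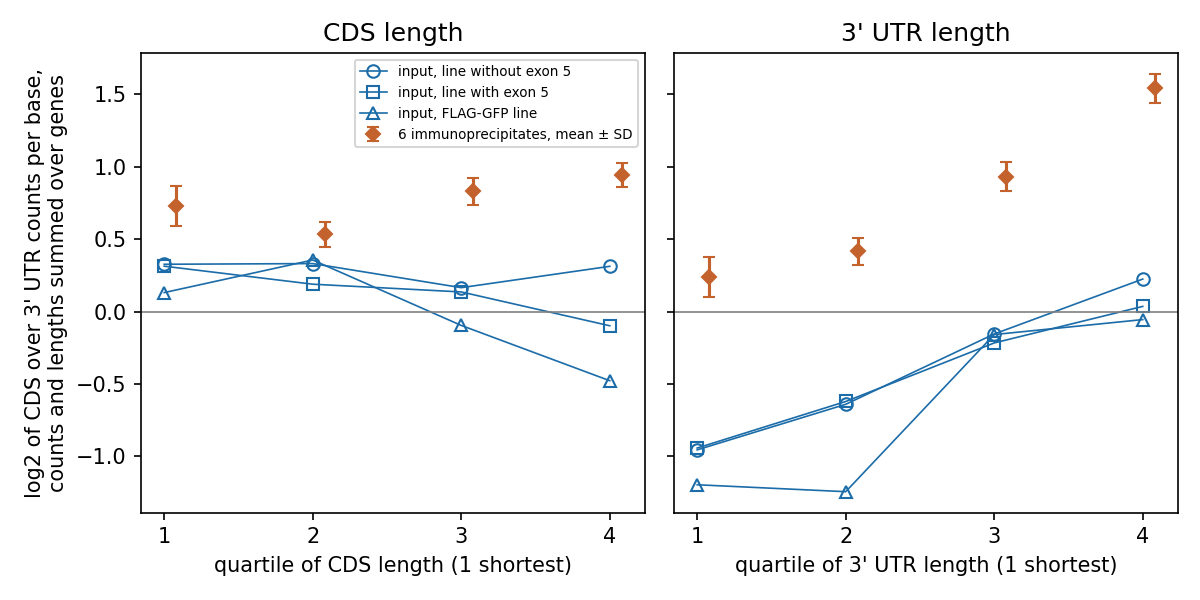
Log2 of CDS over 3' UTR counts per base, with counts and lengths summed over the genes of each quartile of CDS length (left) and 3' UTR length (right), without the 10 most counted genes. Open symbols joined by lines are the 3 inputs; diamonds are the mean of the 6 immunoprecipitates with SD. On the right all 3 inputs lie between -1.20 and -0.94 for the shortest 3' UTRs and between -0.06 and 0.22 for the longest.

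By CDS length the summed ratios of the inputs differed less. Without the 10 most counted genes, their mean log2 ratios were 0.26 ± 0.11, 0.29 ± 0.09, 0.07 ± 0.14 and -0.09 ± 0.40 (SD, n = 3) from the shortest to the longest quartile. With those genes the last was -0.90 ± 0.21, in a quartile that includes Lars2 and Map1b. In each quartile the 3 inputs lay below the mean of the immunoprecipitates. The median over single genes again went the other way, from -1.68 in the first quartile to 1.10 in the fourth. In the first, 336 of 1008 genes had no CDS count, and in the fourth 258 of 1007 had no 3' UTR count. With bounds in place of each 0, both medians were 0.00.

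Summed over their genes, ribosomal proteins had more counts per base in the CDS than in the 3' UTR in every input, but no single gene was called. Of 35 members among cytosolic ribosomal protein genes, 34 were tested, with 1476 CDS and 209 3' UTR counts over the inputs. Summed over the group, the log2 ratio was 2.34, 2.18 and 1.16 in inputs 1, 2 and 3, above 0 in each. None of the 34 was called (0 and 0.0993% of all tested genes were), the median log2 ratio was 4.71 against -0.19 over all tested genes, and it was 0.00 with the 22 genes seen in 1 part set to their bound. Rpl4, a protein of the large subunit, had 83, 73 and 37 CDS counts and no 3' UTR count. Rps25, of the small subunit, had 49, 3 and 0 CDS counts and no 3' UTR count. The immunoprecipitates ranged from 1.63 to 8.07 on few counts.

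Translation factors and other mRNAs with a terminal oligopyrimidine tract had a group ratio of 0.23, 0.71 and 0.08, with 25 tested, 8 of them below 0, and a median of 0.77. Its well-counted members Eef2 and Eif4g1 had fitted log2 ratios of -0.81 and -1.67, on the side of the 3' UTR. Rack1, a scaffold on the small ribosomal subunit, had 76, 83 and 66 CDS counts against 0, 2 and 0 in the 3' UTR. Nuclear genes of oxidative phosphorylation had 465 CDS and 19 3' UTR counts in 5 tested genes and a group ratio of 2.34, 2.77 and 4.09. Atp5b, the beta subunit of ATP synthase, had 83, 88 and 80 CDS counts against 0, 3 and 0. Their immunoprecipitate values were 0.37 to 1.56 and 0.93 to 5.01. No gene of either group was called.

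Summed over the genes of secreted and membrane proteins, counts per base were higher in the 3' UTR, with no single gene called. For the 21 tested genes of the secretory pathway and membrane glycoproteins the group's log2 ratio was -1.46, -0.85 and -0.97, below 0 in each input, with 15 of 21 fitted ratios below 0 and a median of -1.10. The immunoprecipitates stood at 0.14 to 1.07. Scd2 had 36, 114 and 21 CDS counts over 1075 bases and 435, 387 and 198 3' UTR counts over 3667 bases. Psap, the precursor of lysosomal saposins, had 0, 49 and 0 CDS counts against 16, 366 and 38. These 2 genes gave 1020 and 420 of the group's 2841 3' UTR counts. Itgb1, the integrin beta 1 subunit, was 1 of the 6 genes above 0, with 92, 94 and 114 CDS counts against 14, 36 and 4.

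Cytoskeletal genes gave a group ratio of -0.70, -0.63 and -0.70, the least spread of the groups given, against -0.27 to 0.35 in the immunoprecipitates, with 10 of 16 fitted ratios below 0. Vim, the intermediate filament protein vimentin, had 92, 107 and 38 CDS counts against 53, 6 and 36, and Myh9, a non-muscle myosin heavy chain, 122, 39 and 10 against 32, 15 and 42. Heat shock proteins and chaperones stood at 0.12, -0.21 and -0.67. Hsp90b1, the chaperone of the endoplasmic reticulum, had 105, 147 and 18 CDS counts against 82, 85 and 25, in parts that held 280.4 and 1236 CPM per kb. Hspa5, the other main chaperone there, held 159 and 314 CPM per kb, and Calr, the calcium-binding calreticulin, 274 and 350.2. Glycolysis genes stood at 0.25, 0.45 and 0.15, with a median over 9 genes of -1.56, so that the sum and the median differ in sign. Pkm, the pyruvate kinase, held 258 CPM per kb in the CDS and 831 in the 3' UTR.

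Among groups of nuclear RNA handling, the summed ratio of hnRNPs was above 0 in every input, while SR proteins and chromatin regulators changed side. The 27 tested hnRNPs, proteins that package nuclear pre-mRNA, stood at 1.33, 0.34 and 0.27 against 1.86 to 2.39 in the immunoprecipitates, with 11 of 27 fitted ratios below 0. Hnrnpr had 16, 38 and 0 CDS counts against 110, 311 and 34 over a 3' UTR of 19422 bases. SR proteins and speckle scaffolds stood at 0.56, -0.08 and 1.31 against 1.71 to 2.65, with 12 of 20 below 0. Son, a speckle scaffold, had 35, 68 and 91 CDS counts against 9, 33 and 0. Chromatin regulators stood at -0.51, 0.11 and -2.41. In input 3, Chd8, a chromodomain remodeller, had 12 CDS and 209 3' UTR counts, against 24 and 41 CDS counts and none in the 3' UTR of inputs 1 and 2.

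The 8 mRNA export factors stood at -1.22 and -1.19 in inputs 1 and 2, and input 3 had no CDS count among them. Ncbp3, a cap-binding protein tied to mRNA export, had 9, 0 and 0 CDS counts against 154, 281 and 69 in the 3' UTR. Nxf1, the main export receptor, had 10, 36 and 0 against 0, 8 and 26. Chtop itself had 59, 4 and 0 CDS counts against 17, 6 and 0, with 88.4% of its counts in input 1. Input 3, from the GFP line, counted only 2285 of the 4270 members, so its 0 cannot be read as an effect of the line. Whether CDS counts of Chtop came from the FLAG-tagged cDNA was not tested. Immediate-early genes and genes with AU-rich 3' UTRs had fitted ratios below 0 in 12 of 12, with a median of -1.76, although the group's sums gave -0.48, 0.10 and 0.44. Egr1, a growth-induced transcription factor, had 0, 35 and 64 CDS counts against 2, 21 and 47. Neuroblastoma and neuron identity genes stood at 1.37, -0.02 and -0.34, with 10 of 17 below 0. L1cam, a neural adhesion protein, had 21, 71 and 0 CDS counts against 23, 46 and 202. Of 2 testable histone genes, Macroh2a1 had 7 CDS and 42 3' UTR counts, all in input 1. In the chromatin, export, SR and heat shock groups the median over genes (1.08, 3.20, -0.18 and 0.16) and the sum differed in sign in at least 1 input, as they did for neuronal genes (-0.71). Within the inputs, the edgeR test called no member of any of these groups. Over all tested genes, 52.5% of fitted ratios were below 0. Whether the number below 0 in any group differed from that share was not tested.

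The immunoprecipitates, tested for the same genes in the same way, leaned to the CDS. With exon 5, edgeR called 321 of 3969 genes (8.09%) denser in the CDS and 35 (0.882%) denser in the 3' UTR, and the median log2 ratio was 0.55. Without exon 5 these were 455 (11.4%) and 59 (1.48%) of 3990 and 0.65. The difference from the inputs was tested in 1 fit over 18 columns. The CDS to 3' UTR ratio was lower in the inputs for 85 of 4043 genes (2.1%) and higher for 16 (0.396%), and the median difference was -0.95 on the log2 scale. At an unadjusted p under 0.05 there were 576 and 218.

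These counts depended strongly on single libraries and on the tool. They were 131 and 29 without input 1, 227 and 106 without input 2, and 13 to 16 and 1 to 2 without any 1 immunoprecipitate. DESeq2 gave 517 and 114, TMM factors 22 and 21, and either isoform alone 1 and 0. Of the 101 genes called, 51 had no CDS count in the inputs, 11 had no 3' UTR count and 39 had both, of which 34 were lower and 5 higher. Counting can repeat reads in this set: 22 gamma-protocadherin genes, cell adhesion genes that share their last exons, carried the same 166 3' UTR counts, and 7 of them were among the 85. Without them 78 remained.

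Of the called genes, 4 had counts in both parts of every input, and all were lower in the inputs. They were chosen for this after their values were seen. Usp9x, encoding a deubiquitinase, had 27, 29 and 7 CDS counts and 27, 24 and 26 3' UTR counts. Its log2 ratio was -1.01, -0.74 and -2.83 in the inputs and 1.75 to 3.85 in the immunoprecipitates (edgeR difference -4.12, SE 0.89, adjusted p = 0.0256). Nfat5, encoding a transcription factor of the osmotic response, had 11, 60 and 16 CDS counts and 55, 156 and 121 in the 3' UTR. Its ratio was -1.45, -0.55 and -2.06 against 1.07 to 2.74 (edgeR difference -3.33, SE 0.70, adjusted p = 0.0226).

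Scd2 stood at -1.81, 0.01 and -1.44 against 1.06 to 3.14 (edgeR difference -3.26, SE 0.74, adjusted p = 0.0297). Huwe1, with 213, 214 and 149 CDS counts against 26, 38 and 12, stood at 0.55, 0.02 and 1.12 against 2.17 to 4.31 (edgeR difference -2.45, SE 0.64, adjusted p = 0.0483). For each of the 4 genes the inputs lay below all immunoprecipitates. Over all 4044 genes, 9.5% lay so and 1.95% lay above all of them.

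Lars2 had more counts in the 3' UTR than in the CDS in both kinds of library, with 427 CDS and 9502 3' UTR counts in the immunoprecipitates together. Its 3' UTR held 58552 CPM per kb in the inputs and 1480 in the immunoprecipitates, and its CDS 14.3 and 21.4. Lars2 was also called (edgeR difference -6.42, SE 1.06, adjusted p = 0.0033). Psap and Hnrnpr differed by -4.86 and -5.17 (edgeR adjusted p = 0.0289 and 0.0308). The CDS was at 0 in 2 of the 3 inputs for Lars2 and Psap and in 1 for Hnrnpr, so these fitted values rest on few CDS counts. Cbx5, encoding the heterochromatin protein HP1 alpha (chromosome 15, 103191546 to 103239904), had no CDS count and 140, 181 and 112 3' UTR counts over 8415 bases. With the CDS at 3 counts per library its ratio was at least 23.7-fold lower than in the immunoprecipitates, where both parts were counted (552 and 987; edgeR adjusted p = 0.00275). The same bound was 75.5-fold for Shprh, a DNA repair ubiquitin ligase with 17, 33 and 27 3' UTR counts (edgeR adjusted p = 0.00275). It was 38.7-fold for D10Wsu102e (edgeR adjusted p = 1.8e-05).

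Of the 16 genes with the higher ratio in the inputs, 11 had no 3' UTR count there and 5 had both parts counted. Cbx7, a Polycomb protein gene named after its values were seen, had 21, 43 and 8 CDS counts against 1, 55 and 0 in the 3' UTR. Piezo1, encoding a mechanically gated ion channel (chromosome 8, 122481698 to 122551329), had 41, 40 and 107 CDS counts over 7650 bases and none in the 3' UTR of 578 bases, so its ratio was at least 2.53-fold higher (edgeR adjusted p = 0.0387). Lamc1, the laminin gamma 1 chain (chromosome 1, 153218922 to 153332786), had 30, 28 and 56 CDS counts and no 3' UTR count over 2709 bases, at least 7.54-fold higher (edgeR adjusted p = 0.0276). Pde10a, a cyclic nucleotide phosphodiesterase, had 54, 38 and 0 CDS counts and a bound of 13.4-fold. Actn1, encoding the actin crosslinker alpha-actinin 1, was the cytoskeletal gene called higher, with 14, 50 and 20 CDS counts and 0, 1 and 0 in the 3' UTR (edgeR adjusted p = 0.0107).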

How the data were processed

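Raw counts per gene for the CDS, 3' UTR, 5' UTR and their total were deposited by the authors for 9 libraries, per the file headers, with part lengths in bases. The submitters' processing notes name mm10, TopHat2 and DESeq2; no version is given, and read filtering, collapsing and strand handling are not given either. Of the other deposited tables, 27 columns of per-sample values were not used. Input columns carry replicate numbers unlike the titles and were matched by line and primer name.

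CPM used library totals. Part ratios were fitted with edgeR 4.0.16 in R 4.3.3 (robust quasi-likelihood F test, offset of library total times part length, library as block; for the difference a part by input term), with Benjamini-Hochberg adjustment over all genes tested. Alternatives used DESeq2 1.42.0 and limma 3.58.1 (voom), other minimums, TMM factors, length limits and single libraries left out. The fits were also run on simulated data. The outcome is not reported here, so no error rate at the inputs' common dispersion of 3.1 is given. Fitted folds are on the log2 scale. Where a part was at 0 in every input, a bound with 3 counts per library is given. Medians per library added 0.5 counts.

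Genes named were Chtop, the 12 highest by mean CPM, called genes with 60 or more counts (up to 10 each way within the inputs, 6 each way for the difference, by size) and the 3 most counted of each list. A gene the rule picked is not reported here. Genes named outside the rule were picked for their counts or values after these were seen. The members and lists were chosen with earlier results of these data known. Same-numbered libraries did not deviate together (r from -0.046 to 0.058), so numbers were not used as pairs. Symbols come from the deposited tables (3462 of 4270 members); coordinates are those of GRCm38.p6 in RefSeq, by symbol. Part lengths were used as deposited: 10 of 3269 matched genes had a 3' UTR length above the span of the gene, and CDS lengths were multiples of 3 in 76.8%.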

Additional observations from a re-analysis of the deposited data

Results flagged for a closer look

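The within-gene CDS to 3' UTR ratio differed between inputs and immunoprecipitates by the edgeR test of the difference itself. In all, 85 genes were lower and 16 higher in the inputs. The fitted log2 differences were -6.42 for Lars2, -5.17 for Hnrnpr, -4.86 for Psap and -3.26 for Scd2. The CDS of Scd2 was counted in all 3 inputs, that of Hnrnpr in 2 and those of Lars2 and Psap in 1 alone. For genes with no CDS count in any input the ratio was lower by at least 135-fold for Pdpr (12, 0 and 64 3' UTR counts), which encodes a regulator of pyruvate dehydrogenase phosphatase, and 97.4-fold for Marchf11 (14, 13 and 0), a ubiquitin ligase gene. The Marchf11 bound rests on 7 3' UTR counts in the immunoprecipitates, and that of Pdpr on 15. The bounds were 75.5-fold for Shprh, 38.7-fold for D10Wsu102e, 27.8-fold for Tgoln1 (77, 24 and 0), a trans-Golgi network protein, and 23.7-fold for Cbx5. For genes with no 3' UTR count the ratio was higher by at least 13.4-fold for Pde10a, 7.54-fold for Lamc1, 4.24-fold for Psd (94, 57 and 0 CDS counts), 2.53-fold for Piezo1 and 1.23-fold for Mycbp2 (13, 110 and 49). The causes were not tested.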

How the results depend on the processing

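With depth of 75504 to 173342 counts and 1 input per line, most within-gene ratios could not be placed on either side of 0, and several counts of calls moved with the tool or the libraries used. Genes with the denser CDS in the inputs numbered 0 in all 13 fits. The 3' UTR and CDS shares kept their direction in all alternatives run; with 1 library left out they differed by 20.4 to 21.7 and by -21.3 to -20.2 points, with adjusted p of 0.0536 to 0.107, which reflects the fewer libraries. Genes with the denser 3' UTR in the inputs numbered 4, and 7 with at least 5 counts in every input, 1 with no replicate block, and 1 to 6 with 1 input left out. Genes with a lower ratio in the inputs numbered 85, and 147 with the replicate block, 160 with the numbers of the column names, 22 with TMM factors, 517 with DESeq2, 1 with either isoform alone, and 13 to 227 with 1 library left out. Genes with a higher ratio numbered 16, and 24 with the replicate block, 26 with the numbers of the column names, 8 with filterByExpr, 114 with DESeq2, 0 with either isoform alone (edgeR; 78 with exon 5 and 115 without at an unadjusted p under 0.05), and 1 to 106 with 1 library left out. The median log2 ratio of -0.32 was 0.0079 from summed counts of genes with both parts counted. The 10 most counted genes held 9.49% of input counts. Ranked on CDS counts alone, the top 10, of which 6 were the same genes, held 5.54% of CDS counts. The causes were not tested.

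Of 649 alternative values for 56 genes within the inputs, 604 kept side and direction, 8 lost a call, 8 gained one and 29 changed sign, in 16 genes of which none was called. Of 297 values for 16 called differences, 181 remained called, 116 did not and 0 changed sign. Sign changes under another fit were -0.11 for Rpl18 (voom), 0.21 for Hnrnpr, -0.72 for Hnrnph1, -0.56 for Nxf1, -6.29 for Chd8, 0.073 for Egr1 and 0.55 for Dusp4 (no replicate block), and -0.12 for Hnrnph1 and -3.81 for Chd8 (voom). With 1 input left out, the log2 ratio ran from -2.01 to 0.204 for Eef2, -0.652 to 4.55 for Ldha, -1.71 to 0.278 for Vim, -0.773 to 0.352 for Calr, -1.51 to 0.444 for Hnrnpr, -1.18 to 1.96 for Hnrnph1, -1.65 to 1.83 for Srrm2, -1.66 to 1.85 for Son and -2.18 to 3.51 for Nxf1. It ran from -3.38 to 7.11 for Chd8, -2.13 to 0.546 for Chd4, -1.38 to 0.198 for Egr1, -3.17 to 2.56 for Dusp4, -1.40 to 0.016 for Vgf and -0.147 to 1.01 for Ncam1.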
